A study of Mus musculus with 10 samples.

Results

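The macrophages of the mouse liver were followed through 9 marker genes, Clec4f, Vsig4, Timd4, Marco, Cd5l, Cd163, Cd68, Csf1r and Adgre1, in whole-liver RNA sequencing after injection of an antibody against CD95. The genes were chosen by symbol, and all 9 were found among the 38922 genes measured. Livers came from male wild-type C57BL/6N mice aged 6 weeks. A group of 5 mice received 0.5 µg/g of the agonistic antibody (CD95-Ab) into the peritoneum and a group of 5 received the same volume of saline, and all livers were taken after 6 h. No mouse carried a transgene, each library came from 1 mouse, and no library was prepared from purified macrophages.

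Kupffer cells are the resident macrophages of the liver. They sit in the sinusoids, the capillaries of the organ, and clear bacteria, old red blood cells, free hemoglobin complexes and dying cells from the blood. They depend on the growth factor receptor CSF1R, and when they are lost, monocytes from the blood can enter the liver and take on their identity step by step. CD95, also called Fas, is a death receptor, and hepatocytes respond to its ligation with apoptosis. Clec4f, a lectin that in mice is restricted to Kupffer cells, Vsig4, a receptor for complement C3 fragments, and Timd4, a receptor for the phosphatidylserine exposed by dying cells, mark the resident population. Marco, Cd163 and Cd5l encode proteins with scavenger receptor cysteine-rich domains, and of these Marco and Cd5l were also listed as Kupffer cell markers. Cd68, Csf1r and Adgre1 are carried by macrophages more widely.

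Levels are given as CPM, the deposited counts scaled to an adjusted library total of 1000000, and a gene was called when edgeR's quasi-likelihood test gave a Benjamini-Hochberg adjusted p (FDR) of 0.05 or less over all 13719 genes tested. All 9 marker genes passed the filter on low counts. Libraries held 25965699 to 62097636 counts in saline mice and 27480796 to 44962196 in CD95-Ab mice. The lowest count of any marker gene in any mouse was 42, for Cd163. The tissue label was matched by Alb, the albumin gene of hepatocytes, which was present at 76150 to 98070 CPM in saline livers and 30500 to 60980 CPM in CD95-Ab livers. Hemoglobin RNA, which belongs to red blood cells, summed to 31.45 to 240.6 CPM in saline mice and to 990.9 to 33580 CPM in CD95-Ab mice, with the most in CD95-Ab replicates 3 and 4.

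The 9 marker genes did not move as a block. Marco, Cd68 and Cd5l were higher in the livers of CD95-Ab mice, Cd163 was lower, and Clec4f, Vsig4, Timd4, Adgre1 and Csf1r were not called. Thus 3 of 9 were called higher, where 25.4% of all tested genes were, and 1 of 9 was called lower, where 22.0% were, so both numbers lie near the background of this experiment. The median log2 fold change of the 9 genes was 0.60, against 0.01 for all tested genes. For 2 of the 9, Marco and Cd68, every CD95-Ab mouse lay above every saline mouse, a pattern found in 18.6% of tested genes. In whole liver, fewer cells of a type and less RNA per cell cannot be told apart, and the same holds for more of either.

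**Figure D1:**
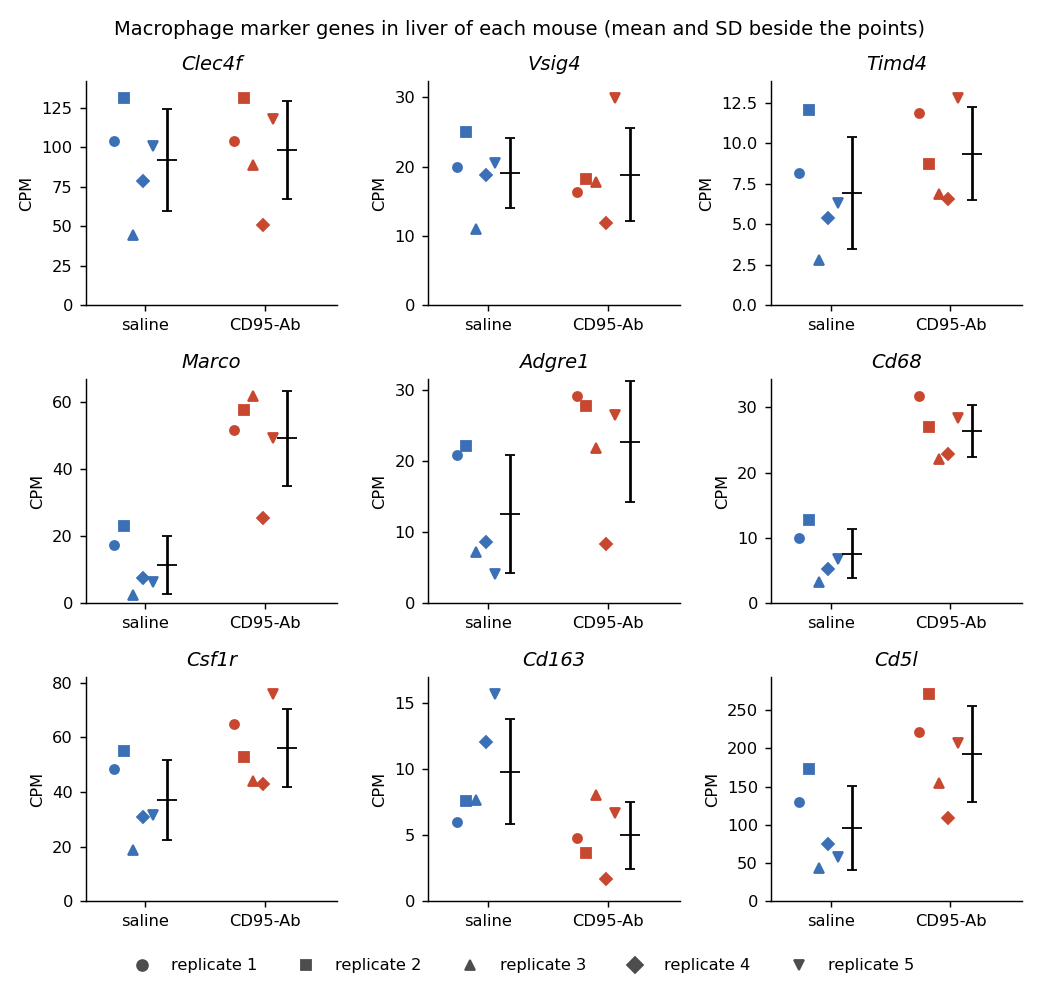
Level of each of the 9 marker genes in each mouse, as CPM on a linear axis of its own from 0, with saline and CD95-Ab mice side by side, 1 point per mouse and the mean and SD beside the points. The points of the groups lie apart for Marco and Cd68 and overlap for the other 7 genes.

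Before the values, the promoters of 4 of these genes are shown, those of Marco and Cd68, whose groups lay apart, and those of Clec4f and Vsig4, which were not called. The RefSeq promoter table (GRCm38.p6) held 7 of the 9 genes, with 250 bases before and 50 bases from the transcription start, on the strand of the gene. The capitals mark the core of the PU box on either strand, GAGGAA or TTCCTC, which the macrophage transcription factor PU.1 can bind.
Marco (chr1:120504975-120505274, minus strand): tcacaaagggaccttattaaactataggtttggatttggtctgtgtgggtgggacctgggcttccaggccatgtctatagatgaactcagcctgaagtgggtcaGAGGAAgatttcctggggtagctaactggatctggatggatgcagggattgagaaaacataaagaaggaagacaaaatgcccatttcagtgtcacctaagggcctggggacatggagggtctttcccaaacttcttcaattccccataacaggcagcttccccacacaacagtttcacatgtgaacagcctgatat
Cd68 (chr11:69666121-69666420, minus strand): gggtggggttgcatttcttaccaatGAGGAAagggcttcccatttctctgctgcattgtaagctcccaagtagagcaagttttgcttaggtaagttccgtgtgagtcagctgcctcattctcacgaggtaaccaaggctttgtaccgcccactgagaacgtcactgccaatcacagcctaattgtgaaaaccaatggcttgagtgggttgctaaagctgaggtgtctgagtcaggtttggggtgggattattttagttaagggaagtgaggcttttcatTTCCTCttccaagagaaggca
Clec4f (chr6:83656067-83656366, minus strand): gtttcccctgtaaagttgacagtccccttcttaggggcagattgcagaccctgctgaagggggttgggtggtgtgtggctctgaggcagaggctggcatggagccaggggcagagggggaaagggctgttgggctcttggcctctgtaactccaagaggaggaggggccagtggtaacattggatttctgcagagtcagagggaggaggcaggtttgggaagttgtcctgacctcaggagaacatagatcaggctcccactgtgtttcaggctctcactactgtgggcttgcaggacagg
Vsig4 (chrX:96293389-96293688, minus strand): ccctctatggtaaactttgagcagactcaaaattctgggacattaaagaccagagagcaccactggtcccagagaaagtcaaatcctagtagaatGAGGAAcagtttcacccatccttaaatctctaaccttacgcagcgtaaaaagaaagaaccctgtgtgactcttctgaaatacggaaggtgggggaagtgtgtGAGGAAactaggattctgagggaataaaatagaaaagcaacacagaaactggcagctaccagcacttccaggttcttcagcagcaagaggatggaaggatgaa

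Counted from the transcription start to the leftmost base of the match, the PU box core stood at -146 in Marco, at -225 and 29 in Cd68 and at -155 and -53 in Vsig4, and Clec4f had no match in this window. Of the 7 promoters 4 held it, those of Marco, Cd68, Vsig4 and Cd5l, compared with 28.3% of the 27025 promoters in the table. The AP-1 site TGANTCA, searched on both strands, was found in 1 of 7 promoters, at -149 and -24 in Cd68, and in 7.9% of all promoters. Neither CACGTG on both strands, the E-box read by lysosomal regulators, nor TATAAA as written was found in any of the 7, and 7.2% and 8.9% of all promoters held them. Marco and Vsig4 both carried the PU box core, and the first was called while the second was not.

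For the resident markers, gene positions are those of GRCm38, as for all genes here. Clec4f (chr6:83644542-83656187) measured 104, 131.3, 44.46, 78.7 and 101 CPM in saline replicates 1 to 5. In CD95-Ab replicates 1 to 5 it measured 103.7, 131, 88.58, 50.54 and 118 CPM. The ranges of the groups lay almost on top of each other, and each group had 1 low mouse, saline replicate 3 and CD95-Ab replicate 4. The log2 fold change was 0.10 (SE 0.29, 95% interval -0.54 to 0.74, FDR = 0.801), which leaves room for a moderate change in either direction. Means were 91.9 ± 32.4 CPM in saline livers and 98.4 ± 31.1 CPM in CD95-Ab livers (SD, n = 5 each).

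Vsig4 (chrX:96247203-96293438), which binds C3b-coated particles, was found at 20.02, 25.05, 11.04, 18.78 and 20.56 CPM in saline mice. In CD95-Ab mice it was found at 16.3, 18.15, 17.76, 11.87 and 29.94 CPM. The saline values were bracketed by a low replicate 3 and a high replicate 2, and the highest value of all belonged to CD95-Ab replicate 5. The difference was -0.02 on the log2 scale (SE 0.25, 95% interval -0.56 to 0.53, FDR = 0.955). Timd4 (chr11:46810800-46844332) stood at 8.163, 12.07, 2.817, 5.426 and 6.304 CPM in saline mice and at 11.87, 8.726, 6.847, 6.539 and 12.82 CPM in CD95-Ab mice. No CD95-Ab mouse was as low as the lowest saline mice, and only 1 exceeded the highest, so the groups overlapped. Its log2 fold change was 0.43 (SE 0.33, 95% interval -0.29 to 1.15, FDR = 0.307).

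Among the genes with scavenger receptor cysteine-rich domains, Marco (chr1:120474538-120505024), a receptor that captures bacteria and particles, had the largest change of the 9. It measured 17.34, 23.15, 2.451, 7.581 and 6.341 CPM in saline replicates 1 to 5. In CD95-Ab replicates 1 to 5 it measured 51.6, 57.67, 61.9, 25.47 and 49.29 CPM. Every CD95-Ab liver held more Marco RNA than any saline liver, although the lowest of them, replicate 4, was close to the highest saline mouse. Marco rose 4.33-fold, with a log2 fold change of 2.11 (SE 0.49, 95% interval 1.04 to 3.19, FDR = 0.00407). It was the only marker gene past a log2 fold change of 2, a size that 6.59% of tested genes reached in the upward direction.

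Cd163 encodes the receptor through which macrophages take up hemoglobin bound to haptoglobin, and it lies at chr6:124304656-124330527. It was counted at 6.046, 7.59, 7.692, 12.08 and 15.74 CPM in saline replicates 1 to 5 and at 4.814, 3.662, 8.081, 1.695 and 6.709 CPM in CD95-Ab replicates 1 to 5. Of the CD95-Ab mice, 3 lay below every saline mouse and 2 lay among them. Cd163 fell 1.97-fold (log2 fold change -0.97, SE 0.38, 95% interval -1.79 to -0.16, FDR = 0.0497), the 1 decrease among the 9. This call stood at the threshold. It was lost when saline replicate 2, 3, 4 or 5 or CD95-Ab replicate 1, 2 or 4 was left out, with the FDR then between 0.0509 and 0.115 and the log2 fold change as close to 0 as -0.74.

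Cd5l encodes a protein that macrophages secrete into the blood, and it lies at chr3:87357881-87371073. It measured 130.2, 173.2, 43.05, 74.77 and 58.18 CPM in saline replicates 1 to 5 and 221.1, 271.4, 154.6, 109.4 and 206.7 CPM in CD95-Ab replicates 1 to 5. In 3 CD95-Ab mice the level exceeded every saline mouse, and in replicates 3 and 4 it lay within the saline range. Cd5l rose 2.01-fold (log2 fold change 1.01, SE 0.37, 95% interval 0.21 to 1.81, FDR = 0.0398). The call was lost without saline replicate 3, 4 or 5 or CD95-Ab replicate 1, 2 or 5, the FDR then reaching at most 0.0980, and also with library totals in place of the scaling factors (log2 fold change 0.90, FDR = 0.0991).

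Among the markers shared by macrophages at large, Cd68 (chr11:69664213-69666153), a glycoprotein of lysosomes and endosomes, had the lowest FDR of the 9. Its saline values were 9.998, 12.81, 3.353, 5.272 and 6.749 CPM. Its CD95-Ab values were 31.8, 27.07, 22.17, 22.93 and 28.32 CPM. The lowest CD95-Ab mouse stood well above the highest saline mouse. Cd68 rose 3.46-fold (log2 fold change 1.79, SE 0.30, 95% interval 1.14 to 2.44, FDR = 0.000468). Its coefficient of variation was 49.5% among saline mice and 15.0% among CD95-Ab mice, the smallest of the 9 in the treated group. Marco and Cd68 kept their calls in each leave-one-out fit.

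Csf1r, the receptor for the growth factors CSF1 and IL-34, lies at chr18:61100598-61132149 and measured 48.41, 55.08, 18.91, 30.82 and 31.63 CPM in saline mice. It measured 64.92, 52.61, 43.99, 42.99 and 75.97 CPM in CD95-Ab mice. Of the treated mice, 2 exceeded the saline range and 3 lay inside it. The log2 fold change was 0.60 (SE 0.27, 95% interval 0.02 to 1.19) and did not pass the threshold over all genes (FDR = 0.0844), but without saline replicate 2, the mouse with the most macrophage marker RNA in its group, it was 0.78 with an FDR of 0.0310. Csf1r overlaps Hmgxb3 on the opposite strand, which measured 5.989 to 11.51 CPM in saline mice and 10.43 to 15.24 CPM in CD95-Ab mice, most in proportion to Csf1r in saline replicate 3, where it stood at 11.33 CPM, and whether the counting used strand is not given in the sources used here.

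Adgre1, the F4/80 antigen by which mouse macrophages are commonly stained (chr17:57358691-57483527), varied widely in both groups. It measured 20.82, 22.12, 7.213, 8.659 and 4.079 CPM in saline mice and 29.23, 27.83, 21.9, 8.316 and 26.53 CPM in CD95-Ab mice. In 3 treated mice the level passed the highest saline mouse, whereas CD95-Ab replicate 4 stood with the low saline mice. The log2 fold change was 0.86 (SE 0.46, 95% interval -0.13 to 1.85, FDR = 0.14).

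**Figure D2:**
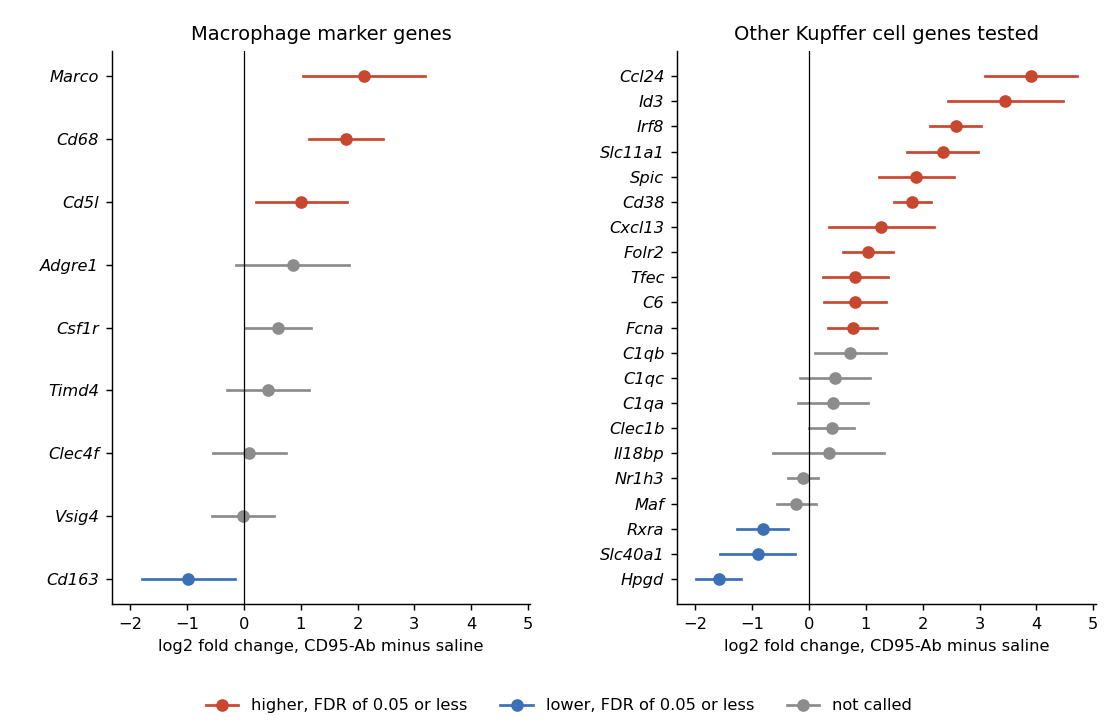
Log2 fold change, CD95-Ab against saline, with its 95% interval from edgeR's quasi-likelihood fit over 5 mice a group, for the 9 marker genes (left) and for 21 other genes known from Kupffer cells (right), with colour giving the call. On the left, the intervals of Marco, Cd68, Cd5l and Cd163 lie away from 0 and pass the FDR. The interval of Csf1r begins at 0.02 without passing it, and those of Clec4f and Vsig4 are centred near 0. On the right 11 genes were called higher and 3 lower, beside 25.4% and 22.0% of all tested genes.

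Whether the markers changed unequally was asked within each mouse, since the ratio of a pair of genes in the same library does not depend on how that library was scaled. The 36 ratios among the 9 genes were compared by a two-sided exact permutation test over the 10 mice, in which the smallest attainable p is 0.00794. After adjustment over the 36 pairs, 21 differed between the groups at 0.05 or less. For 15 of 36 pairs (41.7%) the ratios of the groups did not overlap, compared with 25.9% of the ratios of these genes to any other tested gene. Unadjusted p reached 0.05 or less in 72.2% of the pairs and in 47.3% of the ratios to other genes.

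For Marco and Clec4f, the called gene with the largest fold change and a resident marker, the ratio is given in every mouse. Not scaled for transcript length, the CPM ratio of Marco to Clec4f was 0.167, 0.176, 0.0551, 0.0963 and 0.0628 in saline replicates 1 to 5. In CD95-Ab replicates 1 to 5 it was 0.498, 0.44, 0.699, 0.504 and 0.418. The low CD95-Ab replicate 4, which held the least of most markers, was no exception in this ratio. Relative to Clec4f, Marco was 4.98-fold higher in CD95-Ab livers (exact permutation p = 0.00794, adjusted 0.019), Cd68 was 3.48-fold higher and Cd5l 2.02-fold higher, both with the same p. The ratio of Cd68 to Clec4f ran from 0.0669 to 0.0975 in saline mice and from 0.207 to 0.454 in CD95-Ab mice. That of Cd5l to Clec4f ran from 0.576 to 1.32 and from 1.75 to 2.17.

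Ratios among Clec4f, Vsig4 and Timd4 did not pass the test, whereas those of the Kupffer cell markers Marco and Cd5l to Clec4f did. The log2 ratio of Clec4f to Vsig4 differed by 0.15 between the groups (exact permutation, adjusted p = 0.465), and that of Clec4f to Timd4 by -0.41 (adjusted p = 0.105), while Vsig4 to Timd4 differed by -0.56 (adjusted p = 0.069). Vsig4 against Csf1r did differ, by -0.70 on the log2 scale (exact permutation, adjusted p = 0.019), and so did Timd4 against Cd5l, by -0.61 (adjusted p = 0.019). Adgre1 exceeded its saline ratio to Clec4f 1.85-fold (exact permutation, adjusted p = 0.0408). The ratio of Clec4f to Csf1r changed by -0.55 (exact permutation, adjusted p = 0.052), which did not pass.

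Within the macrophage-wide markers, Cd68 parted from Csf1r. Their ratio was 0.171 to 0.233 in saline mice and 0.373 to 0.533 in CD95-Ab mice, a 2.38-fold difference with no overlap (exact permutation, adjusted p = 0.019). Marco and Cd68 did not part from each other detectably, with a difference of 0.52 on the log2 scale (exact permutation, adjusted p = 0.194). The 2 widest differences involved Cd163. The ratio of Marco to Cd163 ran from 0.319 to 3.05 in saline mice and from 7.35 to 15.8 in CD95-Ab mice, and Cd68 relative to Cd163 was 7.83-fold higher after CD95-Ab (exact permutation, adjusted p = 0.019).

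**Figure D3:**
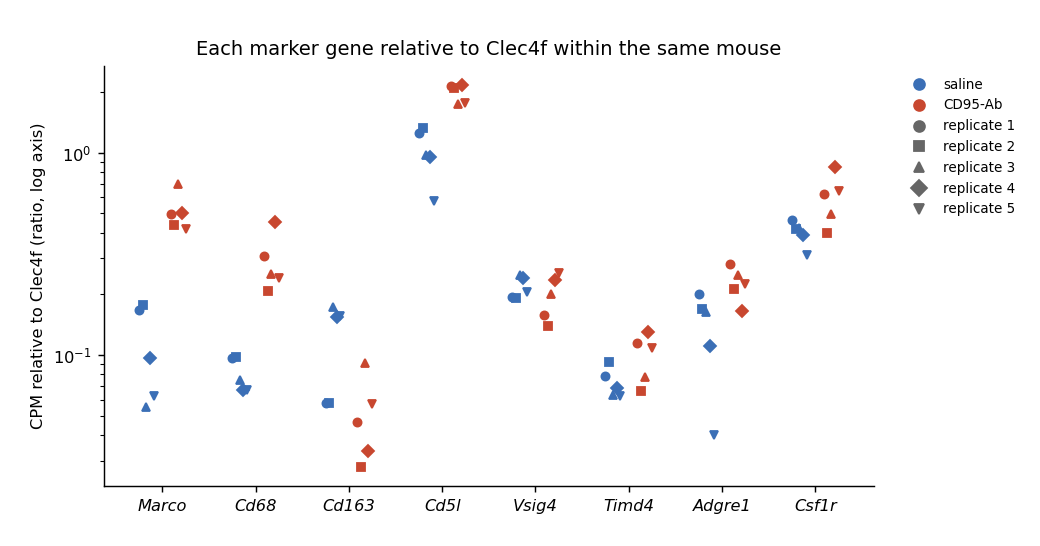
Ratio of each of the other 8 marker genes to Clec4f within each mouse, from CPM on a log axis, with 1 point per mouse and the groups side by side. Marco, Cd68 and Cd5l show no overlap between saline and CD95-Ab mice, and the other 5 genes overlap, with Timd4 above every saline mouse in 3 of the 5 CD95-Ab mice.

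Levels of different genes can be set beside each other only per transcript length, so the deposited FPKM (fragments scaled by transcript length and library total) were used for the order of abundance. In saline livers Cd5l (51.9 ± 33.8 FPKM, SD, n = 5) and Clec4f (49.1 ± 18.5 FPKM) led and could not be separated beyond their spread. Vsig4 followed at 14.6 ± 4.62 FPKM. Csf1r, Cd68, Marco, Adgre1 and Timd4 then formed a close series from 8.83 ± 4.53 down to 3.48 ± 2.00 FPKM in which each step was smaller than the SD of its neighbours. Cd163 was the least abundant at 2.24 ± 0.658 FPKM, a level within the SD of that of Timd4. After CD95-Ab the order was Cd5l (97.0 ± 38.1 FPKM), Clec4f (47.4 ± 15.6 FPKM), Marco (25.1 ± 8.01 FPKM), Cd68 (22.6 ± 5.89 FPKM), Vsig4 (13.6 ± 5.36 FPKM), Csf1r (12.8 ± 4.68 FPKM), Adgre1 (7.17 ± 3.17 FPKM), Timd4 (4.42 ± 1.75 FPKM) and Cd163 (1.12 ± 0.542 FPKM). Marco thus moved from the sixth place to the third by mean level, and Clec4f kept the second, although in treated livers Marco and Cd68, Vsig4 and Csf1r, and Adgre1 and Timd4 each lay within an SD of each other.

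Untreated livers already differed several-fold in macrophage marker RNA. The sum of the 9 genes was 365, 462.4, 141, 242.1 and 250.5 CPM in saline replicates 1 to 5 and 535.4, 598, 425.9, 279.8 and 554.3 CPM in CD95-Ab replicates 1 to 5. Saline replicate 2 was the highest of its group for 8 of the 9 genes, all but Cd163, and saline replicate 3 was the lowest for 7, all but Adgre1 and Cd163. CD95-Ab replicate 4 was the lowest of its group for 8 genes, all but Cd68. The highest saline mouse exceeded the lowest 9.45-fold for Marco and 5.42-fold for Adgre1, compared with 2.27-fold for Vsig4. The sum of 11 sinusoidal endothelial markers ran the other way at both ends among saline mice, with 75.7 CPM in replicate 2 and 176 CPM in replicate 3, and the part of tissue sampling in these differences was not tested.

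To compare this variation between genes, each mouse was expressed as its deviation from the mean of its own group in log2 CPM. Over the 10 mice, the 28 pairs among the 8 genes other than Cd163 had Pearson r between 0.52 and 0.98 and Spearman rho between 0.35 and 0.95. Of these pairs, 22 passed an adjusted p of 0.05 by r and 17 by rho (exact permutation within groups, adjusted over 36 pairs). Without the 2 mice farthest from the median of a single gene of the pair, r was 0.46 to 0.97. Against the 13710 tested genes that are not in the set, the same 8 genes had a median r of -0.0036, and 11.4% of those r were as high as the lowest among the 28. Timd4 and Csf1r were the closest pair (r = 0.98, rho = 0.95, exact permutation, adjusted p = 0.0025 and 0.0117, r = 0.96 without 2 mice). Cd163 stood outside this group, with r between -0.10 and 0.50 and rho between -0.28 and 0.26 to the other 8 genes and 0 of 8 pairs passing by either measure. For its pairs, r without 2 mice chosen in the same way was -0.58 to 0.46. The gene used for that choice was Cd163 only in the pair with Cd5l, so its own farthest mice were mostly not the ones removed by design. By group, with 5 mice each and no test, r of these 8 pairs was -0.82 to 0.13 in saline mice and 0.19 to 0.85 in CD95-Ab mice, compared with 0.42 to 1.0 and 0.30 to 0.99 for the other 28 pairs.

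**Figure D4:**
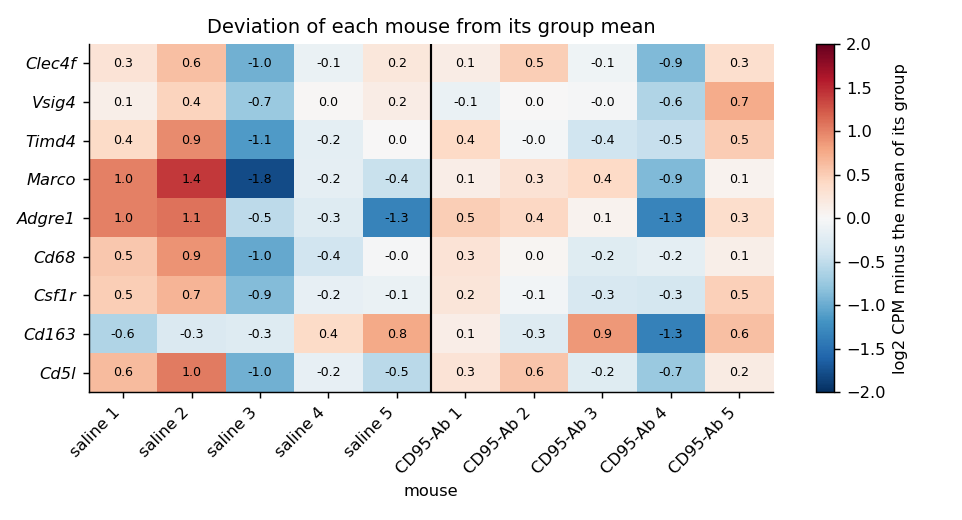
Deviation of each mouse from the mean of its own group, in log2 CPM, for each of the 9 marker genes in rows and the 10 mice in columns, with colour and number giving the deviation. Saline replicate 2 is above the group mean for each gene other than Cd163. Saline replicate 3 and CD95-Ab replicate 4 are below it for all 9 genes, and Cd163 is highest in saline replicate 5 and in CD95-Ab replicate 3.

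Among all tested genes, those whose deviations lay nearest to each marker over the 10 mice are given as a description, since they share the same libraries and were picked from all tested genes. Clec4f was nearest to Cd300c2 (r = 0.953), C1qa (r = 0.945) and Kif15 (r = 0.939). Vsig4 was nearest to Disp2 (r = 0.963), 5430427O19Rik (r = 0.924) and Pcolce2 (r = 0.922). Timd4 was nearest to Ear2 (r = 0.976), Tbxas1 (r = 0.969) and Nckap1l (r = 0.967). The other secreted and surface markers had equally close neighbours. For Marco these were Lrrc25 (r = 0.98), Siglece (r = 0.974) and Selplg (r = 0.971), and for Cd5l they were Ms4a6c (r = 0.985), B430306N03Rik (r = 0.983) and Ctss (r = 0.983). For Cd68 they were Slamf8 (r = 0.982), Il2rg (r = 0.977) and Tmem176a (r = 0.976). Csf1r lay nearest to Cd300a (r = 0.987), Tbxas1 (r = 0.982) and Dock2 (r = 0.973), and Adgre1 to Cfi (r = 0.98), Lyn (r = 0.975) and Prune2 (r = 0.974). Tbxas1 thus appeared beside both Timd4 and Csf1r. The neighbours of Cd163 were Rrm1 (r = 0.922), Hmcn1 (r = 0.917) and Nek2 (r = 0.909), and none of them appeared beside another marker.

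Partners of these markers and related genes were then read from lists of genes. Of 11 genes around CSF1R and related growth factor receptors 9 were tested. Of these, 8 were higher and 1 lower, beside 25.4% and 22.0% of all tested genes. The median log2 fold change was 2.01, the value of Csf2ra, which is not part of CSF1R signalling itself. Csf1, a ligand of Csf1r, rose from 5.388 to 9.22 CPM in saline livers to 29.2 to 42.87 CPM after CD95-Ab (log2 fold change 2.28, FDR = 2.02e-06), and its second ligand gene Il34 rose with a log2 fold change of 0.95 (FDR = 0.00289). The receptor itself, at a log2 fold change of 0.60, was not called. Spi1, which encodes PU.1, rose by 2.48 on the log2 scale, Runx1 by 3.28, and Cebpa, a factor shared by myeloid cells and hepatocytes, was the gene that fell, by 1.63.

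Genes that handle hemoglobin, heme and iron went both ways. Slc40a1, the iron exporter ferroportin, fell as Cd163 did (log2 fold change -0.90, FDR = 0.0278). Hp, the haptoglobin that carries hemoglobin to Cd163, rose with a log2 fold change of 1.30 (FDR = 0.00148). Hmox1, the enzyme that breaks heme down, rose with 3.30 (FDR = 7.30e-06). Hpx, which carries heme, rose with 0.98 (FDR = 0.0339), but its groups overlapped, with 2 of 5 CD95-Ab mice above every saline mouse. Hemoglobin RNA was also more abundant in every CD95-Ab mouse than in any saline mouse, and without CD95-Ab replicates 3 and 4, which held the most of it, the log2 fold change of Cd163 was -0.97 (FDR = 0.0389), whereas without replicate 4 alone it was -0.79 (FDR = 0.0576). Of all tested genes, 25.4% were called higher and 22.0% lower. The list of scavenger receptors and their ligands counted 12 higher, 0 lower and 4 not called among 16 tested of 18, with a median of 1.56. It included Msr1, a scavenger receptor of the same class as Marco, with a log2 fold change of 2.69, and 3 of its tested genes, Olr1, Clec4e and Cd6, passed the filter on low counts only through the CD95-Ab mice. Olr1, a receptor for oxidised lipoprotein, measured 0 to 0.05635 CPM in saline mice, at or under 3 counts, and 3.822 to 11.5 CPM in CD95-Ab mice. C3, whose fragments Vsig4 binds, had a log2 fold change of 0.50 and was not called (FDR = 0.182).

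Genes of the uptake of dying cells, the process in which Timd4 takes part, numbered 18, of which 15 were tested. Of these, 10 were higher, 0 were lower and 5 were not called, beside 25.4% higher and 22.0% lower of all tested genes. Their median was 1.0. Axl rose with a log2 fold change of 1.67 and its bridging ligand Gas6 with 1.43. Mfge8, another bridge to phosphatidylserine, rose with 1.0 and Cd300lf with 2.90. Mertk, the receptor of Kupffer cells in the same family as Axl, had 0.31 and was not called (FDR = 0.0802), and neither was the ligand gene Pros1, at 0.13.

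Other genes known from Kupffer cells were split as well. Of 22 genes 21 were tested, 11 were higher, 3 were lower and 7 were not called, beside 25.4% higher and 22.0% lower of all tested genes. Their median was 0.77. The 22 genes summed to 784.1 to 1127 CPM in saline livers and to 1070 to 1310 CPM after CD95-Ab. Within this sum Rxra alone measured 207.9 to 386.1 CPM in saline livers and 112.7 to 215.4 CPM after CD95-Ab. Id3 measured 7.213 to 41.55 CPM in saline livers and 151.5 to 341.4 CPM after CD95-Ab. The complement genes C1qa, C1qb and C1qc had log2 fold changes of 0.43, 0.73 and 0.45 and were not called, and Clec1b, at 0.40, was not called either. Fcna (0.77), Folr2 (1.04), Slc11a1 (2.35), Spic (1.89), Id3 (3.46) and Ccl24 (3.90) rose, each with every CD95-Ab mouse above every saline mouse. That pattern was found in 18.6% of tested genes. Hpgd (-1.59), Slc40a1 (-0.90), the iron exporter ferroportin, and Rxra (-0.82) fell. Several of these genes, Id3, Hpgd, Slc40a1 and Rxra among them, are expressed by other liver cells too, and their source in whole liver was not tested.

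Genes of mononuclear phagocytes in general were mostly higher. Of 20 tested, 17 were higher and 0 were lower, beside 25.4% and 22.0% of all tested genes. Their median was 1.74, and their sum was 161.1 to 471.8 CPM in saline livers and 850.8 to 1236 CPM in CD95-Ab livers. Cd14 rose by 4.14, Lyz2 by 2.70 and Ptprc by 2.37 on the log2 scale, and Lgmn, a lysosomal protease, by 1.11. Aif1 (0.55), Fcgr3 (0.63) and Lst1 (0.97) were not called. Of 16 genes that mark monocytes and macrophages derived from them 15 were tested, and these 15 were higher, beside 25.4% of all tested genes. Their median was 3.41, and the 16 genes summed to 54.97 to 87.46 CPM in saline livers and 233.6 to 375.1 CPM in CD95-Ab livers. For 2 of the 15, F13a1 and Vcan, no saline mouse reached the 0.328 CPM that the filter on low counts asks for, so they could be tested only because they were high after CD95-Ab. F13a1 measured 0.07057 to 0.2372 CPM in saline livers and 9.659 to 27.3 CPM after CD95-Ab. Cd9 had the smallest log2 fold change of the 15, 1.14, while Itgam rose by 4.96, Ly6c2 by 4.36 and Ccr2 by 3.26. Cx3cr1 and Trem2 belong to the same list, with 3.12 and 2.12. These cells also carry Cd68, Csf1r and Adgre1, so the share of such cells in the values of the 3 genes cannot be told apart from that of resident cells, and it was not tested.

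**Figure D5:**
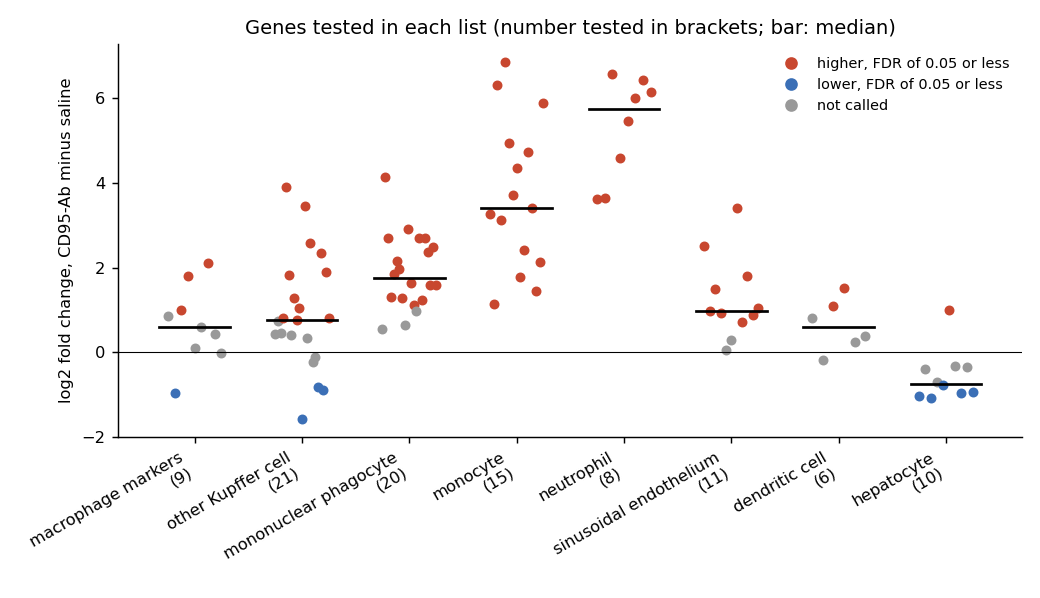
Log2 fold change, CD95-Ab against saline, of each tested gene in the 9 macrophage markers and in 7 other lists, with 1 point per gene, its colour giving the call, and a bar at the median of each list. The macrophage markers have a median of 0.60 and spread to both sides of 0, and the monocyte list lies wholly above 0 with a median of 3.41. F13a1 and Vcan of the monocyte list, and Ngp and Mmp8 of the neutrophil list, could be tested only because they were high after CD95-Ab, so their place above 0 was given by the filter.

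Markers of other cells of the liver were counted as well, and their part in the macrophage values was not tested. Their counts stand beside 25.4% of all tested genes called higher and 22.0% called lower. Of 13 neutrophil genes 8 were tested, 2 of them (Ngp and Mmp8) only through the CD95-Ab mice in which they were high, and the 8 were higher. The 13 genes summed to 4.541 to 11.61 CPM in saline livers and 114.4 to 479.7 CPM in CD95-Ab livers, with S100a8 at a log2 fold change of 6.44. Erythroid genes were higher in 6 of 6, with a median of 6.49. Sinusoidal endothelial genes were higher in 9 and lower in 0 of 11, with a median of 0.98, Lyve1 at 3.41 and Kdr, not called, at 0.29. Stellate cell genes were higher in 4 and lower in 0 of 8, and cholangiocyte genes in 5 and 0 of 6. Hepatocyte genes went the other way, with 1 higher, 5 lower and 4 not called of 10 and a median of -0.75. T and NK cell genes were higher in 8 and lower in 0 of 10, and their sum did not exceed 15.1 CPM in any mouse. B and plasma cell genes were higher in 3 and lower in 0 of 5 tested. Dendritic cell genes, with 2 higher and 0 lower of 6 tested, lay near the share of all tested genes called higher and had a median of 0.60. A list of genes of peritoneal macrophages, with 4 higher and 0 lower of 5 tested, had a median of 1.73, the value of Lrg1. In saline livers Lrg1 alone measured 255.7 to 442.2 CPM, where the whole list summed to 318.8 to 530.5 CPM. Gata6, of the same list, was not called (log2 fold change 0.43, FDR = 0.197). The source of these genes in whole liver was not tested.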

How the data were processed

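Liver RNA of 10 mice was analysed, 5 saline and 5 CD95-Ab, grouped by the labels. The authors assigned reads to genes with RSEM 1.2.19, which shares out reads that match several genes, and deposited an expected count for each gene and mouse, which were whole numbers here. The authors also deposited FPKM, scaled for transcript length and library total, which served only for the order of abundance and 1 alternative. The methods name a human Gencode release, whereas the identifiers are mouse Ensembl genes. The genome build, mouse release and use of strand are not given in the sources used here. Symbols and positions came from GENCODE M21 (GRCm38), in which 37606 of the 38922 gene identifiers were found.

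Genes were kept by filterByExpr (minimum count 10), scaled by TMM and compared by the quasi-likelihood test of edgeR 4.0.16 (R 4.3.3), fitting group alone, with a prior count of 0.125. CPM are scaled to a TMM-adjusted total of 1000000. At these depths 3 counts equal 0.048 to 0.116 CPM. Ratios of genes within a mouse used a pseudocount of 0.1 CPM and exact permutation tests in scipy 1.17.1. Deviations from group means used log2 CPM with a prior count of 2. DESeq2 1.42.0 and limma 3.58.1 served as alternatives, beside other filters, scalings, thresholds, a block for replicate number, and fits that left out 1 mouse at a time. The code was tested on simulated data. Same-numbered mice deviated with correlations of -0.27 to 0.26. The labels do not pair the mice, so no pairing was fitted, but these correlations cannot exclude one.

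The 9 markers and all gene lists were chosen with earlier results of these data known. All 9 markers were named in every mouse. Of each list the named genes were those with the largest and smallest called change and up to 6 with a tie to a marker, and for each marker the 3 nearest genes. Some genes that meet this rule are not printed. A result for 1 gene of the lists is not reported here, and the gene was left out of its list.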

Additional observations from a re-analysis of the deposited data

How the results depend on the processing

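Marco was called higher under every alternative run, Cd68 under every one but the threshold on a log2 fold change of 2, and Timd4 and Adgre1 under none. The number of marker genes called higher was 1, Marco, under that threshold, and the number called lower was 0 then, with an FDR of 0.01, with at least 10 counts in every mouse, and with the replicate block. The labels give same-numbered mice nothing in common but the number, and with that block Csf1r was 0.66 (now called), Cd163 -1.02 (no longer called) and Cd5l 1.12. Cd163 was -0.95 with at least 10 counts in every mouse and -0.97 at an FDR of 0.01, no longer called in either. Cd5l missed the threshold at 0.93 with upper-quartile factors, at 0.90 with library totals alone, at 1.04 with limma on FPKM and at 1.01 with an FDR of 0.01. Clec4f, never called, changed sign to -0.03 with limma on FPKM, and Vsig4 was 0 with at least 10 counts in every mouse.

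Leaving out each mouse in turn, the count called higher ran from 2 to 4 and the count called lower from 0 to 1. Log2 fold changes ran from -0.08 to 0.26 for Clec4f, -0.25 to 0.09 for Vsig4, 0.23 to 0.72 for Timd4, 1.85 to 2.54 for Marco, 0.62 to 1.15 for Adgre1, 1.6 to 2.05 for Cd68, 0.43 to 0.78 for Csf1r, -1.22 to -0.74 for Cd163 and 0.82 to 1.33 for Cd5l, and 15 to 26 of the 36 ratios differed. With a pseudocount of 1 CPM 22 ratios differed. An alternative chosen after seeing the data, without the CD95-Ab replicates 3 and 4 that held the most hemoglobin RNA, gave 3 higher and 1 lower, and Vsig4, not called, was 0.15. With 5 mice a group, changes as small as those of Clec4f and Vsig4 were within the spread between mice, and the causes of the changed calls were not tested.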
